A study of Bos taurus with 12 samples.

Results

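Bovine conceptuses obtained after artificial insemination (AI) were set against cultured fibroblasts (FB), an epithelial, secreting tissue of early pregnancy against a mesenchymal cell. The comparison used the 3 AI arrays and the 3 FB arrays out of 12 in the study. It took in every probe set other than array controls that lay above log2 4 on at least 3 of these 6 arrays. That left 7665 of 24016 probe sets, of which 5494 carried exactly 1 gene symbol and stood for 4728 genes.

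AI conceptuses had developed from embryos produced in vivo, were placed in synchronized recipient cows as blastocysts on day 7 and were recovered on day 16, at a length chosen to be comparable with that of the study's other conceptuses. FB are the body cells whose nuclei the study used to make its cloned embryos, and their RNA was taken from the cells directly. The labels give no breed, sex or age for either group, and nothing in them tells if a group's 3 arrays came from separate animals or cultures, or from pooled material. The p-values therefore rest on the spread between these arrays, which may be technical. The titles and the tissue field of the FB samples carry the words elongated embryo as well, and only their description says fibroblasts. Conceptus RNA came from 10 mg of tissue per sample. Which parts that tissue held is not known here, so that trophoblast, hypoblast and embryonic disc may enter 1 signal. In such bulk RNA fewer cells of a type and less RNA per cell cannot be told apart.

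As background, the outer layer of a ruminant conceptus is the trophoblast, a sheet of polarised epithelial cells joined by cadherin, claudins and desmosomes and braced inside by keratin filaments. Before attachment it lengthens in the uterine lumen, takes up glandular secretions, and releases interferon tau, the signal by which ruminants recognise pregnancy. The hypoblast beneath it forms the yolk sac, which makes plasma-type carrier proteins. A fibroblast, by contrast, carries vimentin filaments, contractile actin bundles and caveolae, and surrounds itself with collagen.

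Between 6359 and 6643 probe sets lay above log2 4 on each of the 6 arrays. AI arrays correlated with each other at 0.979 to 0.989 (Pearson's r across the tested probe sets, which are not independent), FB arrays at 0.995 to 0.996, and AI with FB arrays at 0.482 to 0.506. Control probe sets at the 3' and 5' ends of GAPDH, whose gap grows as RNA degrades, lay apart by 0.21 to 0.38 on AI and 0.011 to 0.060 on FB arrays. Bacterial spike-in controls averaged 6.23 to 7.26 on AI and 5.72 to 5.99 on FB arrays, highest on AI 2. Both measures separate the groups, and their part in the results was not tested. Spread between replicates was larger in the conceptuses, with a median SD of 0.18 for AI and 0.090 for FB over the 5094 probe sets whose means were at least 4 in both groups, and AI had the larger SD in 78.7% of these.

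At an adjusted p under 0.05 (limma, Benjamini-Hochberg over all 7665 probe sets), 6008 probe sets differed, or 78.4%. Of these 3092 were higher (40.3%) and 2916 lower (38.0%) in AI. Counted with 1 probe set per gene, 76.7% of the 4728 tested genes differed, 40.4% were higher and 36.4% lower in AI. Only the tested members of the lists below can be read beside these shares. List counts start from genes on the array, and members below the filter have no call. All AI arrays lay above, or all lay below, every FB array for 81.6% of the probe sets and 80.5% of the genes. A difference of at least 10-fold was reached by 107 genes higher and 140 genes lower in AI. Signals below log2 4 lie near the floor of the table and are only a bound. Where a group's mean was below 4, its arrays below 4 were therefore set to 4 and the fold is written as "at least". A few named genes had a mean of at least 4 with a single array or more below it. Their folds are as fitted, except that ACTA2, TIMP1, TFPI2 and CASP6 are given as bounds in the same way. Because a gene with signal in only 1 group passed the filter through that group and had to differ, such genes are only described. An adjusted p printed for such a gene below is no added evidence, since the filter set its outcome. Lists are also given for their members above log2 4 on all 6 arrays, where they have any. Over all genes of that kind (3227), 39.2% were higher and 30.0% lower in AI (39.0% and 30.0% of such probe sets), and the median difference was 0.11 on the log2 scale.

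**Figure D1:**
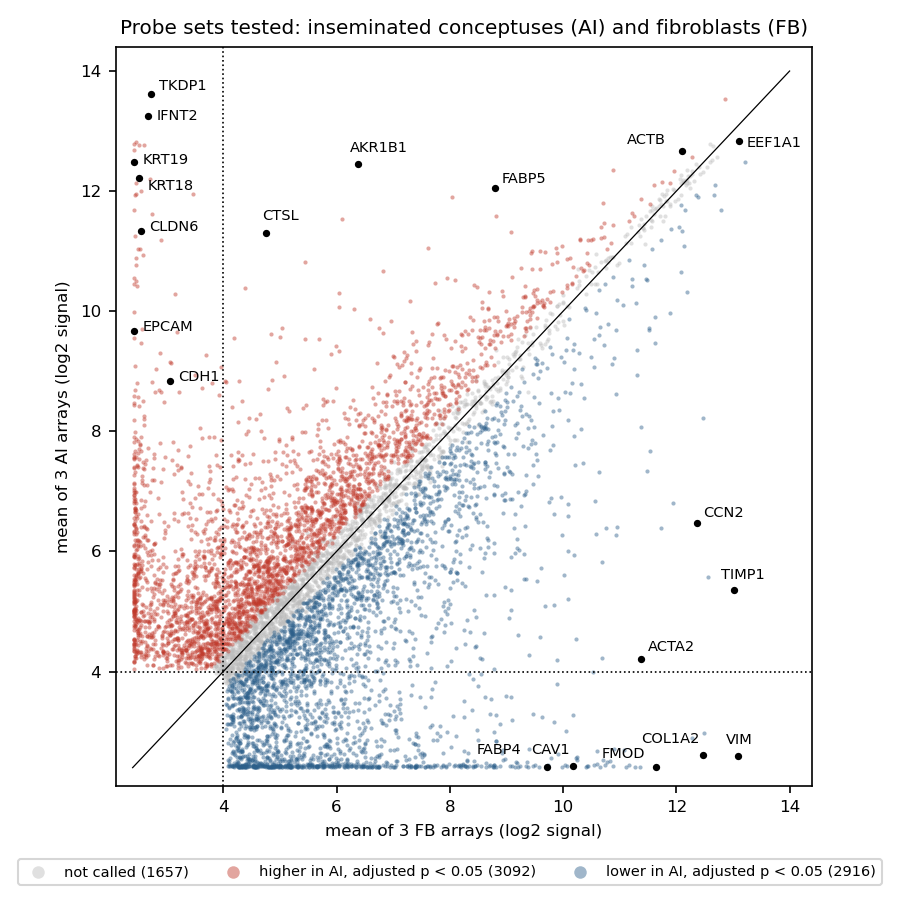
Mean log2 signal of each tested probe set in the 3 FB arrays (horizontal axis) and in the 3 AI arrays (vertical axis), coloured by call, with the line of equality and dotted lines at log2 4. Named points show TKDP1 and IFNT2 at the top left (13.62 and 13.25 in AI) and VIM and COL1A2 at the bottom right (13.09 and 12.48 in FB), while the cytoplasmic actin gene ACTB lies near the line.

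Intermediate filament genes divided by kind between the groups. KRT19, a keratin of simple epithelia, read 12.62, 12.27 and 12.54 on the AI arrays and 2.42, 2.45 and 2.42 on the FB arrays. It was at least 357-fold higher in AI (adjusted p = 2.29e-10). KRT18, the type I keratin that pairs with KRT8 in simple epithelia, read 12.44, 12.22 and 12.01 against 2.51 on all 3 FB arrays, at least 298-fold higher. VIM, which encodes vimentin, the filament protein of mesenchymal cells, went the other way, at 2.48, 2.85 and 2.46 on AI arrays and 13.14, 13.01 and 13.13 on FB arrays. It was at least 546-fold higher in FB (adjusted p = 2.76e-10). None of these arrays overlapped between groups, which was a condition for choosing the genes and held for 80.5% of all tested genes.

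Of 10 keratin genes on the array, 4 were higher in AI, 1 was lower and 5 stayed below the filter. KRT7 read 7.03, 6.23 and 6.88 in AI (at least 6.55-fold higher), and KRT5, a keratin of stratified epithelia, averaged 4.81 ± 0.18 in AI (SD, n = 3). KRT10, of differentiating epidermis, was the lower member, at 3.37 ± 0.30 in AI and 5.48 ± 0.07 in FB (mean ± SD, n = 3 each). KRT8 and KRT14 stayed below log2 4 on all 6 arrays, KRT8 at 2.62 to 2.83 in AI, so the usual partner of KRT18 gave no signal on its probe set.

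Genes that seal and anchor epithelial cells were present in the conceptus and below log2 4 in the fibroblast. Of 24 junction and polarity genes on the array 17 were higher in AI, 0 lower and 7 below the filter, and 15 of the 17 had a FB mean below 4. CLDN6, a claudin of embryonic epithelia, read 11.33, 11.32 and 11.36 in AI and 2.59, 2.58 and 2.44 in FB, at least 162-fold higher (adjusted p = 2.11e-10). EPCAM, an adhesion molecule of epithelial surfaces, read 9.66, 9.66 and 9.69 against 2.43, 2.42 and 2.42, at least 50.9-fold higher. The 3 AI arrays lay within 0.1 log2 units of each other for both genes, closer than most members.

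CDH1, which encodes E-cadherin of adherens junctions, was at 8.80, 8.69 and 9.04 in AI and 2.91, 3.29 and 2.97 in FB (at least 28.8-fold higher, adjusted p = 6.34e-09). The claudin genes CLDN7 and CLDN4 were at least 25.3-fold and at least 22.5-fold higher, and the desmosomal cadherin gene DSC2 at least 15.1-fold. The mesenchymal cadherins ran opposite. CDH13 read 2.43 on each AI array and 10.44, 10.44 and 10.41 in FB, and CDH11, the cadherin of mesenchyme and bone, 2.45 on each AI array and 9.46, 9.39 and 9.65 in FB. They were at least 86.0-fold and at least 45.3-fold higher in FB.

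Regulators and membrane proteases of epithelia followed the junction genes: 12 of 20 on the array were higher in AI, 1 lower, 1 tested and not called, and 6 below the filter. TSPAN1, a tetraspanin of secretory epithelia, read 11.06, 10.89 and 11.16 in AI and 2.54, 2.59 and 2.46 in FB, at least 131-fold higher (adjusted p = 3.11e-10). SPINT2, an inhibitor of membrane serine proteases, had signal in both groups, at 9.70, 9.50 and 9.40 against 5.60, 5.46 and 5.28, a 17.0-fold difference (95% interval 13.9 to 20.7). Its AI arrays all lay far above its FB arrays. PRSS8, a membrane-anchored protease, was at least 17.3-fold higher, the epithelial splicing regulator ESRP1 at least 16.0-fold, RAB25 of apical recycling at least 12.4-fold and PLET1 at least 10.0-fold. The galactoside-binding lectin gene LGALS3 was the lower member, 1.94-fold higher in FB (1.60 to 2.36).

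**Figure D2:**
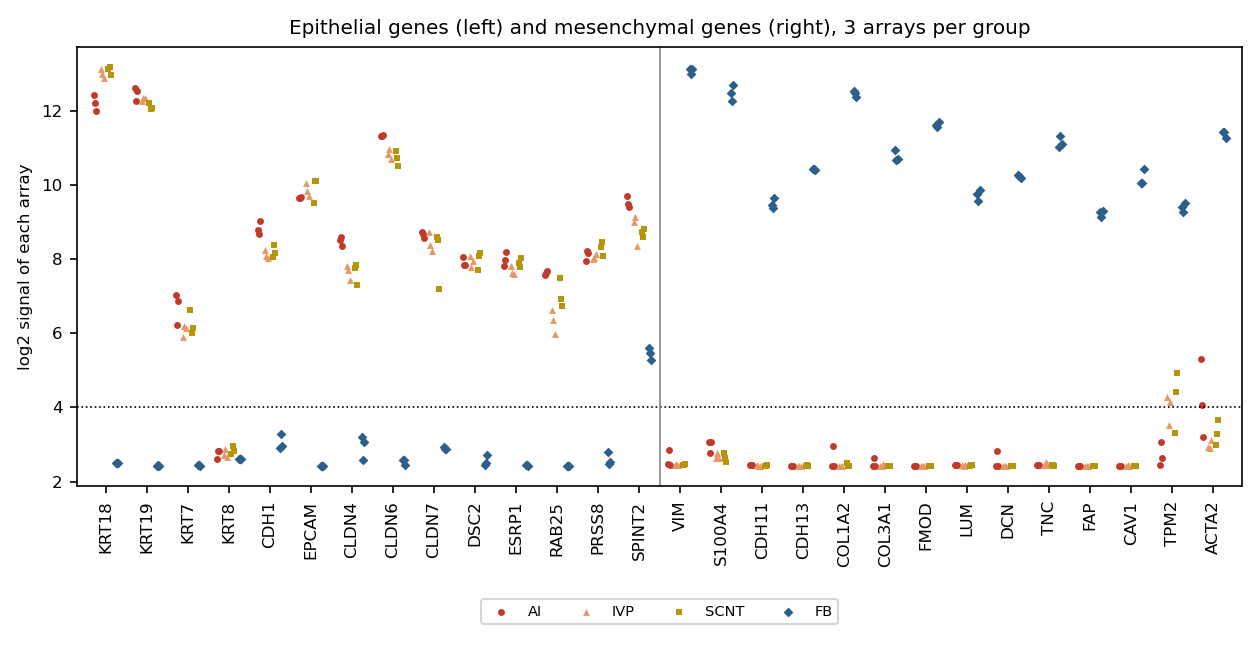
Log2 signal of each array for 14 epithelial genes (left of the grey line) and 14 mesenchymal genes (right), with AI, IVP, SCNT and FB arrays side by side (3 each) and a dotted line at log2 4. AI and the other conceptus arrays lie together above 4 for every epithelial gene drawn except KRT8, which is below 4 on every array, and below 4 for every mesenchymal gene drawn except TPM2 and ACTA2.

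Secreted trophoblast proteins with signal were all higher in AI. TKDP1, a trophoblast Kunitz domain protein, read 13.59, 13.66 and 13.59 in AI and 2.78, 2.76 and 2.61 in FB, at least 784-fold higher (adjusted p = 2.11e-10). IFNT2, an interferon tau gene, read 13.24, 13.42 and 13.09 against 2.73, 2.62 and 2.68, at least 610-fold higher. SSLP1, a secreted protein of the trophoblast, read 12.81, 12.89 and 12.73 and was at least 449-fold higher. These are the largest bounds for genes higher in AI, and the AI arrays of each differ by less than 0.4 log2 units.

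TKDP4 was at least 436-fold higher in AI, and PAG2 and PAG11, pregnancy-associated glycoproteins related to aspartic proteases, at least 412-fold and at least 246-fold. Of 27 genes of this list on the array, 9 were higher, 0 lower and 18 below the filter, among them 13 further PAG genes and the placental lactogen and prolactin-related genes CSH2, PRP1, PRP4 and PRP6. TKDP, PAG and interferon tau genes are families of near-identical members, and a probe set may bind several of them, which leaves its exact member uncertain. Another gene with a bound of this size, LOC404105, read 12.18, 12.07 and 12.35 in AI and at most 2.91 in FB. A probe set assigned to the Polycomb gene EED read 11.82 to 12.16 in AI and about 2.55 in FB, but of the 15 tested EED probe sets 6 were higher, 4 lower and 5 not called, so this assignment is uncertain.

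Trophoblast transcription factors with signal were mostly higher in AI. HAND1, needed for trophoblast differentiation, averaged 8.20 ± 0.18 in AI (SD, n = 3) and read 2.59, 2.59 and 2.60 in FB (at least 18.4-fold higher, adjusted p = 2.47e-09). TFAP2A read 6.99, 6.69 and 6.97 against 3.42, 3.65 and 3.42 (at least 7.37-fold), and ASCL2, an imprinted regulator of trophoblast, 6.17, 5.75 and 5.61 against 2.84, 2.42 and 2.42 (at least 3.59-fold). Each separated the groups without overlap, which was a condition for choosing it. ID2, a dominant-negative helix-loop-helix factor, had signal in both groups and was 5.49-fold higher in AI (4.17 to 7.21). Of 13 genes on the array, 6 were higher, 1 was lower and 6 were below the filter. The lower one was the WNT effector TCF7L2 (2.98-fold higher in FB, 2.34 to 3.80), and ELF5 stayed below log2 4 on all arrays. The markers CDX2, GATA2, GATA3 and TFAP2C were not analysed here.

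Genes of hypoblast and yolk sac ranged in AI from strong signal to none. APOA1, the main protein of high-density lipoprotein, read 12.23, 11.92 and 11.68 in AI and 3.40, 3.56 and 3.47 in FB, at least 246-fold higher (adjusted p = 1.20e-09). AHSG, encoding fetuin-A, read 11.97, 12.14 and 10.93 against 2.42 on each FB array, at least 205-fold higher, with AI 3 the lowest. The endoderm factor gene GATA6 read 7.85, 7.66 and 7.97 (at least 14.2-fold higher). The retinol carrier gene RBP4 was at least 8.92-fold higher and APOE, of lipoprotein uptake, 8.44-fold (5.60 to 12.7).

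Of 24 genes of this list on the array 7 were higher, 2 lower, 1 not called and 14 below the filter. AFP and GATA4, both used to mark yolk sac endoderm, stayed below log2 4 on all 6 arrays. TTR, the thyroid hormone carrier that the list holds as a yolk sac product, ran against its list. It read 2.43 on each AI array and 6.89, 6.57 and 6.78 in FB, at least 6.71-fold higher in FB. FST, which encodes the activin antagonist follistatin, was also higher in FB (3.32-fold, 2.37 to 4.64).

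Markers of other cells were checked in both groups. The epiblast genes POU5F1 and SOX2 stayed below log2 4 on every array, as did all 4 epiblast genes on the array. All 11 endothelial and all 11 uterine epithelial genes were below 4 on all arrays. The erythroid globins HBA and HBB were at the floor, and 10 of 11 erythroid genes never passed 4; the exception was ALAS2, of heme synthesis, at 7.86, 6.45 and 6.10 in AI.

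Of 21 leukocyte genes, 15 were below 4 on all arrays, among them PTPRC, CD3E, CD14 and CD68. The other 6 were called. RAC2, a GTPase of blood cells, and ITGB2, a leukocyte integrin subunit, were at least 25.9-fold and at least 22.2-fold higher in AI. AIF1 and CD48 were at least 14.1-fold and at least 3.78-fold higher, while CD3G and LAPTM5 read 6.19 ± 0.15 and 5.95 ± 0.13 in FB against 2.42 and 2.43 in AI. Expressed as the sum of unlogged signals, the leukocyte list ran from 951 to 1441 on AI arrays and from 229 to 254 on FB arrays, and its part in the results was not tested. For the fibroblast, VIM, COL1A1, COL1A2, COL3A1, LUM, DCN and PDGFRA were above 4 on all 3 FB arrays and on no AI array. These are 7 of its 9 markers on the array. PDGFRB stayed below 4 in both groups, and THY1, a common surface marker of fibroblasts, was higher in AI, at 4.99, 5.08 and 5.19 against 2.78, 3.28 and 3.15.

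**Figure D3:**
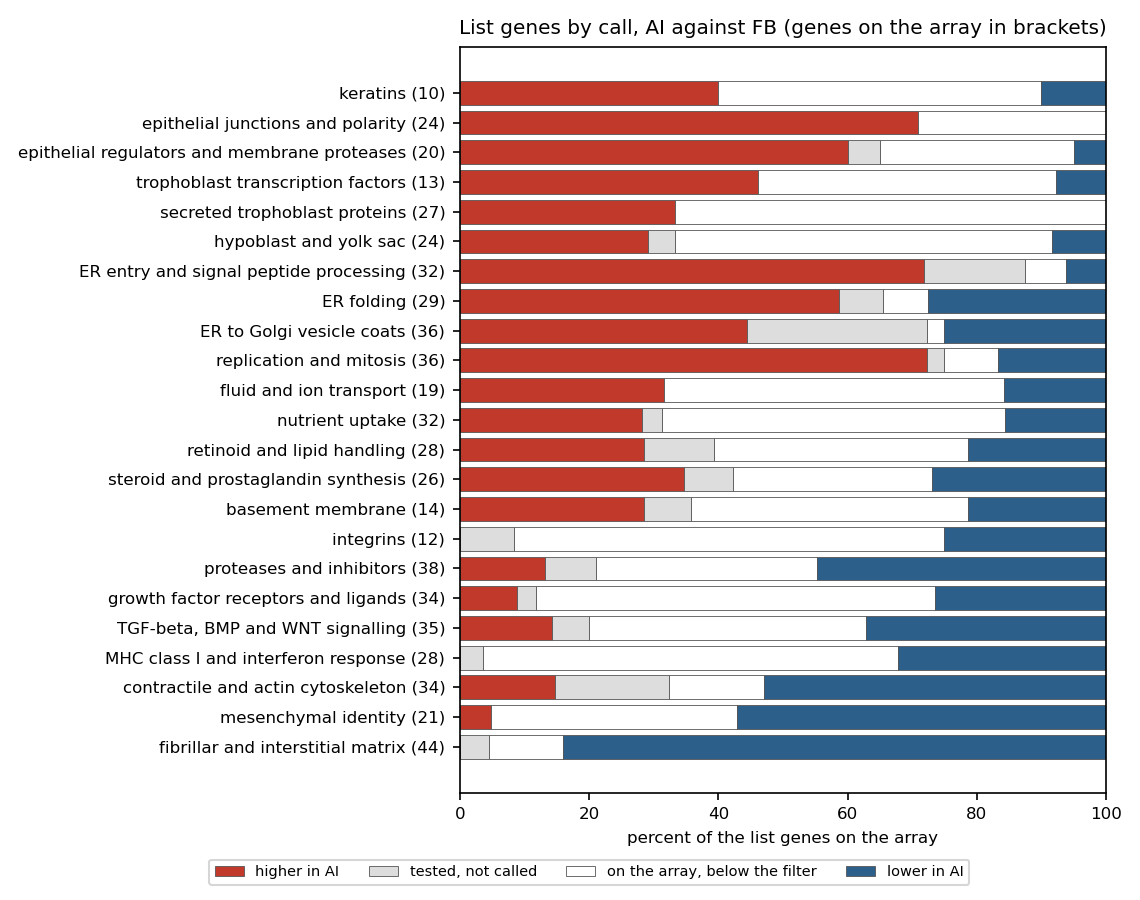
Share of the genes of each list on the array (number in brackets) that were higher in AI, lower in AI, tested and not called, or below the filter on low values. Junction genes are higher or below the filter (17 and 7 of 24), interstitial matrix genes are almost all lower (37 of 44), and lists of general secretory machinery hold few genes below the filter.

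Few members of several lists lay above log2 4 on all 6 arrays, where the filter left their direction open. Both such junction genes were higher in AI, as were 2 of 4 epithelial regulators (1 lower), 2 of 3 trophoblast transcription factors (1 lower) and 2 of 4 hypoblast genes (1 lower). Of 5 basement membrane genes 2 were higher and 2 lower, of 4 genes of fluid and ion transport 3 were higher and 1 lower, and of 8 genes of retinoid and lipid handling 5 were higher and 0 lower. Among 8 genes of steroid and prostaglandin synthesis 3 were higher and 3 lower. Lower in AI were 2 of 3 integrin genes, 2 of 2 genes of mesenchymal identity, 4 of 4 growth factor genes, 6 of 8 genes of TGF-beta, BMP and WNT signalling and 2 of 3 genes of antigen presentation and interferon response, with 0 higher in each.

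The machinery that takes proteins into the secretory pathway was measured in both groups, so its direction was open. Of 32 genes of endoplasmic reticulum (ER) entry and signal peptide processing on the array, 23 were higher in AI, 2 lower, 5 not called and 2 below the filter. Among the 28 members above log2 4 on all 6 arrays, 21 were higher and 2 lower, with a median difference of 0.73 beside 0.11 for all such genes and 39.2% higher. The magnesium transporter and oligosaccharyltransferase subunit gene MAGT1 read 7.55, 7.71 and 7.30 in AI and 5.53, 5.51 and 5.73 in FB, 3.81-fold higher (3.09 to 4.70). SPCS3 and SEC11A, subunits of signal peptidase, were 3.46-fold and 3.04-fold higher (adjusted p = 5.87e-05 and 3.89e-06). TRAM1, which helps chains through the translocon, was 2.80-fold, the glycosylation enzyme gene STT3B 2.73-fold and the channel gene SEC61A1 2.38-fold higher. SRP14, of the signal recognition particle, went the other way, 2.31-fold higher in FB (1.75 to 3.06).

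Genes of the ER folding list leaned to AI. Of 29 on the array 17 were higher in AI, 8 lower, 2 not called and 2 below the filter. Of the 22 above log2 4 on all 6 arrays 15 were higher and 5 lower, with a median difference of 0.87. The list also holds CREB3L2, ATF4, DDIT3, HERPUD1 and SEL1L, which are not folding factors. CREB3L2 was higher in AI and the other ones lower. CRELD2, an ER disulfide isomerase, read 7.87, 7.34 and 8.10 in AI and 5.13, 5.10 and 5.09 in FB, 6.34-fold higher (4.73 to 8.49). The protein disulfide isomerase genes PDIA5 and PDIA4 were 4.09-fold and 2.67-fold higher, the co-chaperone gene DNAJB9 3.55-fold, HYOU1 3.33-fold and the lectin chaperone gene CALR 2.59-fold.

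Those higher in FB included 4 of the 6 tested FKBP genes of this list, which encode prolyl isomerases, some of which act on collagen. FKBP2 and FKBP11 were higher in AI by 0.73 and 1.36 on the log2 scale. FKBP7 was 5.22-fold higher in FB (3.89 to 6.99), FKBP9 3.69-fold, FKBP14 3.09-fold and FKBP10 at least 3.08-fold. The stress response factor gene ATF4 read 7.93, 7.78 and 8.05 in AI and 10.11, 10.24 and 10.25 in FB, 4.86-fold higher in FB (4.09 to 5.76), and its target DDIT3 was at least 5.56-fold higher there. Those given here as folds separated the groups without overlap, which was a condition for choosing them.

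Coat and cargo receptor genes between ER and Golgi did not lean to one group. Of 36 on the array 16 were higher in AI, 9 lower, 10 not called and 1 below the filter, with a median of 0.23 over the 33 above log2 4 on all 6 arrays. MCFD2, part of a cargo receptor, was 4.49-fold higher in AI (3.70 to 5.45), TMED2 2.65-fold and the coat GTPase gene SAR1A 2.32-fold. SEC23A, a coat subunit whose loss blocks collagen export, read 5.64, 6.05 and 5.22 in AI and 8.09, 7.96 and 8.32 in FB, 5.60-fold higher in FB (4.03 to 7.80). TMED3 was 4.68-fold, KDELR3 2.54-fold and COPZ2 at least 16.6-fold higher in FB. MIA3, a receptor that loads procollagen, was 3.22-fold higher in FB on its brightest probe set, but its 3 probe sets did not share a direction (1 higher, 2 lower).

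**Figure D4:**
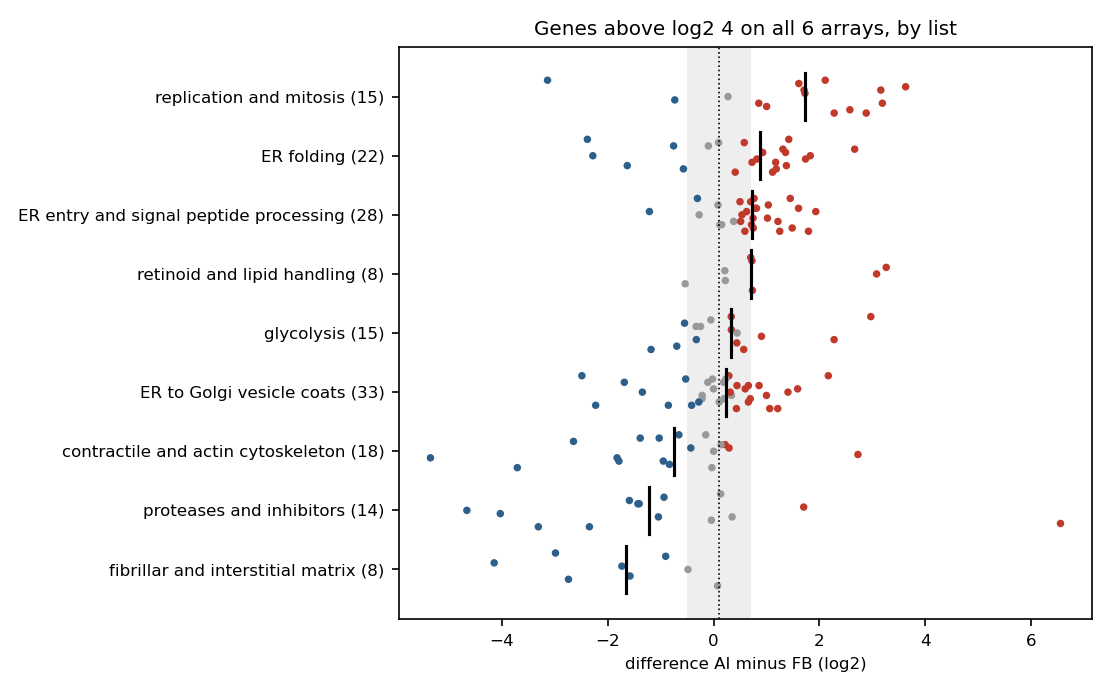
Difference AI minus FB (log2) of each gene above log2 4 on all 6 arrays, for 9 lists (number of genes in brackets), with red and blue for calls higher and lower in AI, grey for no call, and a black bar at each list's median. The shaded band spans the quartiles of all 3227 such genes (-0.49 to 0.68) and the dotted line their median of 0.11, and most ER entry genes lie right of the dotted line while most contractile, protease and matrix genes lie left of it.

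Genes of nutrient uptake went both ways. SLC2A1, the glucose carrier of many embryonic tissues, read 8.79, 9.03 and 8.34 in AI and 3.71, 3.67 and 3.50 in FB, at least 26.4-fold higher (adjusted p = 4.20e-08). SLC2A5, a fructose carrier, read 7.77, 7.53 and 7.71 against at most 2.52 (at least 12.7-fold), and the peptide transporter gene SLC15A1 6.51, 6.64 and 6.84 (at least 6.33-fold). SLC16A1, which carries lactate and other monocarboxylates, had signal in both groups and was 7.83-fold higher in AI (6.40 to 9.58).

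Several amino acid carriers went the other way: SLC38A2 was 5.06-fold (4.03 to 6.36), SLC7A5 2.76-fold, SLC1A5 at least 3.76-fold and SLC1A4 at least 3.40-fold higher in FB. The amino acid exchanger gene SLC7A7 was at least 3.26-fold higher in AI. Of 32 uptake genes on the array 17 were below the filter. Of the 15 tested, 9 were higher in AI, 5 lower and 1 not called, and 8 of the 9 higher genes had a FB mean below 4. Of the 5 above log2 4 on all 6 arrays, 1 was higher and 3 lower, with a median of -0.49. Ion and water channel genes divided within families. ATP1B1, a sodium pump beta subunit of epithelia, was 3.83-fold higher in AI, and ATP1B3 1.38-fold higher in FB (1.14 to 1.67). The water channel gene AQP1 read 2.49, 2.44 and 2.43 in AI and 8.64, 8.89 and 8.61 in FB, whereas AQP11 read 4.89, 6.48 and 5.03 in AI and at most 2.45 in FB. CA2, a carbonic anhydrase, was 10.7-fold higher in AI (8.45 to 13.6), and the sodium-proton exchanger gene SLC9A3 at least 2.56-fold. In all, 6 of 19 genes were higher, 3 lower and 10 below the filter.

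Genes of prostaglandin synthesis differed by member, with PTGS2, AKR1B1 and PTGES3 higher in AI and PTGES, PTGIS and HPGD higher in FB. The difference AI minus FB was 1.11 on the log2 scale for PTGES3. For PTGES it was -0.35 with AI arrays below 4 set to 4, which is a bound. PTGS2, the inducible cyclooxygenase that makes the precursor of all prostaglandins, averaged 11.18 ± 0.34 in AI (SD, n = 3) and read 2.60, 2.85 and 3.22 in FB, at least 145-fold higher (adjusted p = 7.32e-09). AKR1B1, an aldose reductase with prostaglandin F synthase activity in cattle, had signal in both groups, at 12.28, 12.54 and 12.54 against 6.46, 6.36 and 6.32, 67.2-fold higher (56.3 to 80.2). The groups lay 6.07 log2 units apart, against a SD of 0.15 in AI and 0.075 in FB. The prostacyclin synthase gene PTGIS and the prostaglandin-degrading enzyme gene HPGD were 3.68-fold and at least 4.55-fold higher in FB.

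Of 26 genes of steroid and prostaglandin synthesis on the array 8 were below the filter. Of the 18 tested, 9 were higher in AI, 7 lower and 2 not called. STAR, which brings cholesterol into mitochondria, read 6.88, 5.66 and 6.33 in AI and at most 2.51 in FB, and CYP11A1, which cleaves its side chain, 6.39, 5.82 and 5.38 against at most 2.64. Their folds were at least 4.89 and at least 3.65. HSD11B1, which regenerates active glucocorticoid, was at least 7.08-fold higher in FB, and TSPO 6.77-fold (4.78 to 9.58).

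Lipid carriers showed a change of member. FABP5, the epidermal-type fatty acid-binding protein, read 12.04, 12.17 and 11.97 in AI and 8.67, 8.85 and 8.88 in FB, 9.58-fold higher in AI (8.09 to 11.3). FABP4, the adipocyte type, read 2.42 on each AI array and 9.69, 9.81 and 9.67 in FB, at least 52.8-fold higher in FB. ALDH1A1, which makes retinoic acid, read 3.08, 3.87 and 2.81 in AI and 9.63, 9.58 and 9.67 in FB (at least 49.4-fold), while the monoacylglycerol acyltransferase gene MOGAT1 was at least 8.58-fold higher in AI. The acyl-CoA synthetase genes ACSL5 and ACSL1 and the lysosomal lipase gene LIPA were at least 11.1-fold, at least 7.25-fold and at least 7.71-fold higher in FB. Of 28 genes of this list 8 were higher in AI, 6 lower, 3 not called and 11 below the filter.

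Interstitial matrix genes were mostly lower in AI. Of 44 genes on the array 37 were lower in AI, 0 higher, 2 not called and 5 below the filter, and 31 of those tested had an AI mean below 4. Among the 8 above log2 4 on all 6 arrays, 6 were lower and 0 higher, with a median difference of -1.65. COL1A2, a chain of type I collagen, read 2.42, 2.97 and 2.42 in AI and 12.55, 12.49 and 12.39 in FB, at least 357-fold higher in FB (adjusted p = 9.07e-10). FMOD, a proteoglycan that binds collagen fibrils, read 2.42 on each AI array and 11.62, 11.58 and 11.69 in FB, at least 198-fold higher. The AI arrays of both were at or near the floor of the table.

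TNC, the matrix protein tenascin C, was at least 143-fold higher in FB, COL6A1 at least 119-fold and COL3A1 at least 110-fold. DCN and LUM, small proteoglycans of connective tissue, averaged 2.56 and 2.44 in AI and 10.23 and 9.74 in FB. COL1A1, which pairs with COL1A2 in the fibril, read 2.55, 2.73 and 2.65 in AI and 8.95, 9.11 and 8.72 in FB. THBS1 was at least 136-fold higher in FB on its brightest probe set, but of its 5 probe sets 3 were lower in AI, 1 higher and 1 not called. MGP, counted as lower, had 1 probe set lower in AI and 1 higher. Outside the list the phosphoprotein gene SPP1 and the secreted protease gene HTRA1 stood at the floor in AI and were at least 164-fold and at least 155-fold higher in FB.

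The basement membrane, which epithelia lay down themselves, did not follow the interstitial matrix. COL4A1, a chain of its collagen network, read 9.70, 9.31 and 8.90 in AI and 2.81, 2.88 and 2.96 in FB, at least 39.4-fold higher in AI (adjusted p = 1.73e-08). NID2, a linker of the laminin and collagen networks, was 7.34-fold higher in AI (5.79 to 9.30), at 10.00, 9.99 and 9.53 against 7.03, 6.84 and 7.02. Its relative NID1 was 9.07-fold higher in FB (6.37 to 12.9), at 6.40, 6.07 and 5.45 against 9.20, 9.08 and 9.18. The laminin receptor gene DAG1 was 7.36-fold higher in AI (5.82 to 9.31) and the laminin chain gene LAMC1 1.84-fold higher in FB. Of 14 genes on the array 4 were higher, 3 lower, 1 not called and 6 below the filter. Of 12 genes of the integrin list, which does not hold the leukocyte subunit gene ITGB2, 8 were below the filter, 1 was not called and 3 were lower in AI: ITGB3 by at least 19.9-fold, ITGB1 by 1.93-fold (1.58 to 2.37) and ITGAV by 1.42-fold. The ITGAV call ended under 6 alternatives, among them quantile normalization and leaving out any 1 of 4 arrays, with limma adjusted p from 0.0524 to 0.141.

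**Figure D5:**
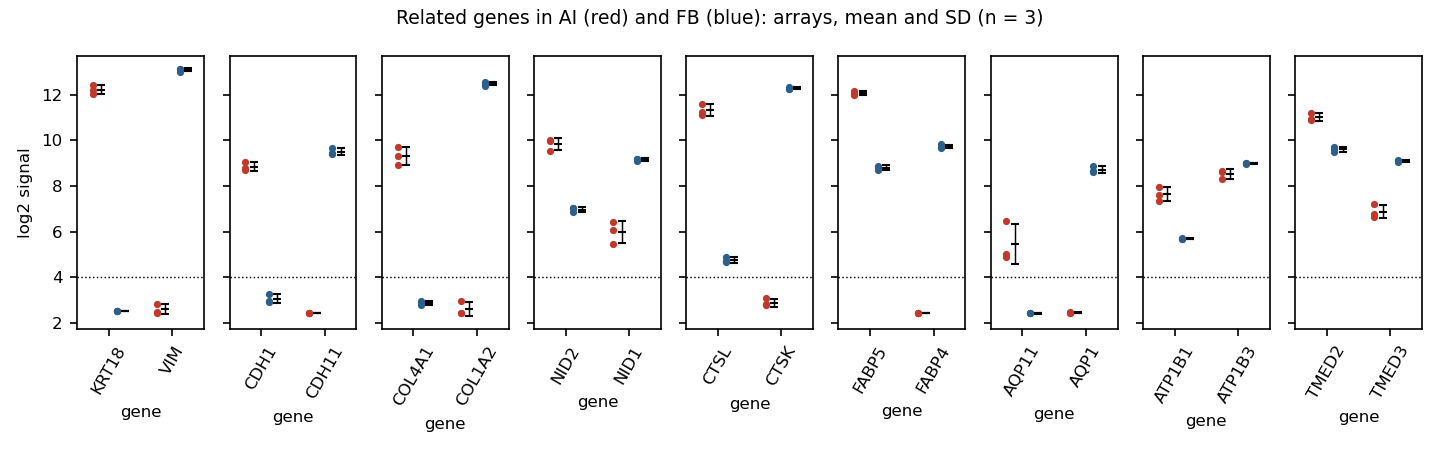
Log2 signal of 9 pairs of related genes in AI (red) and FB (blue), with the 3 arrays of each group, their mean and SD, and a dotted line at log2 4. Groups are to be compared within a gene only, since probe sets of different genes bind differently; in each pair the left gene is higher in AI and the right gene higher in FB, as for NID2 (9.84 and 6.96) and NID1 (5.97 and 9.15).

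Genes of mesenchymal identity were lower in the conceptus in 12 of 21 cases on the array, with 1 higher (THY1) and 8 below the filter. S100A4, a calcium-binding protein of migratory cells, read 3.07, 2.78 and 3.07 in AI and 12.48, 12.27 and 12.71 in FB, at least 358-fold higher in FB (adjusted p = 6.30e-10). FAP, the fibroblast activation protease, was at least 37.8-fold higher and the hyaluronan receptor gene CD44 at least 23.2-fold, the latter with 1 AI array above log2 4 (3.80, 4.27 and 2.68).

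Contractile genes were lower in AI in 18 of 34 cases, higher in 5, not called in 6 and below the filter in 5. Of the 18 above log2 4 on all 6 arrays, 11 were lower and 3 higher, with a median of -0.74. ACTA2, the smooth muscle actin of myofibroblasts, read 5.32, 4.08 and 3.20 in AI and 11.45, 11.43 and 11.26 in FB, at least 120-fold higher in FB. TPM1, a tropomyosin, was 40.7-fold higher (29.6 to 55.9), TPM2 at least 42.3-fold, and the caveolar genes CAV1 and CAVIN1 at least 72.3-fold and at least 19.3-fold. CAV1 read 2.42 or 2.43 on each AI array and 10.05, 10.05 and 10.42 in FB. The muscle LIM protein gene CSRP2, by contrast, was 6.62-fold higher in AI (5.49 to 7.97), the filamin gene FLNC 5.32-fold (4.47 to 6.35) and the calponin gene CNN2 3.21-fold.

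Proteases and their inhibitors were more often lower than higher in AI. CTSL, a lysosomal and secreted cysteine protease of trophoblast, had signal in both, at 11.22, 11.10 and 11.60 in AI and 4.88, 4.66 and 4.72 in FB, 93.7-fold higher in AI (74.2 to 118). CTSK, a related protease that digests collagen, read 2.76, 2.82 and 3.08 against 12.24, 12.33 and 12.26, at least 310-fold higher in FB (adjusted p = 2.59e-10). CTSH was 25.3-fold higher in FB (16.4 to 38.8).

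ADAMTS1, a matrix protease, was at least 28.0-fold and the membrane sheddase gene ADAM10 3.25-fold higher in AI. Of 38 genes on the array 5 were higher in AI, 17 lower, 3 not called and 13 below the filter, and the 14 above log2 4 on all 6 arrays had a median of -1.22. TIMP1, an inhibitor of matrix metalloproteases, read 6.61, 6.08 and 3.40 in AI and 13.07, 13.07 and 12.90 in FB, at least 175-fold higher in FB. The fold as fitted was 201 with all arrays, 102 without AI 3 and 310.1 without AI 1. SERPINF1 and TIMP3 were at least 139-fold and at least 104-fold higher in FB, and the gelatinase gene MMP2 at least 57.6-fold. TFPI2, an inhibitor of plasmin and related proteases, was at least 45.4-fold higher in FB.

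Growth factor receptors and ligands differed by member. FGFR2, a fibroblast growth factor receptor, read 6.76, 6.31 and 7.13 in AI and at most 2.45 in FB (at least 6.64-fold higher), the receptor tyrosine kinase gene KIT averaged 6.98 ± 0.69 in AI (at least 7.92-fold) and the membrane ligand gene EFNA1 read 7.13, 7.22 and 7.21 (at least 9.12-fold). Of the binding proteins of insulin-like growth factors, IGFBP2 was not called, and those higher in FB included IGFBP6 at least 72.4-fold, IGFBP4 at least 12.7-fold and IGFBP7 4.07-fold (3.10 to 5.35). VEGFC, of lymphatic growth, was at least 9.43-fold higher in FB. Of 34 genes on the array 21 were below the filter. Of the 13 tested, 3 were higher in AI, 9 lower and 1 not called. FGF1, counted as lower, had 3 probe sets lower in AI and 1 higher.

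In the TGF-beta, BMP and WNT list 5 of 35 genes were higher in AI, 13 lower, 2 not called and 15 below the filter. CCN2, a matricellular target of TGF-beta and YAP signalling, read 6.49, 6.82 and 6.12 in AI and 12.36, 12.21 and 12.52 in FB, 59.2-fold higher in FB (44.4 to 78.9), and CCN1 was 11.3-fold higher (8.17 to 15.5). The ligand TGFB2 and its receptor TGFBR2 were at the floor in AI and at least 4.07-fold and at least 4.56-fold higher in FB. DKK3 and the WNT receptor gene FZD1 were at least 87.3-fold and at least 10.6-fold higher in FB. ID1, a target of BMP signalling, was 5.79-fold higher in AI (4.93 to 6.80), and the WNT antagonist DKK1 at least 3.21-fold. ID3 of the same list was lower in AI, with a difference of -0.42 on the log2 scale.

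Antigen presentation and interferon response genes with signal were mostly lower in AI. Of 28 on the array 0 were higher in AI, 9 lower, 1 not called and 18 below the filter, among the last ISG15, MX1, MX2 and the receptor genes IFNAR1 and IFNAR2. B2M, the light chain of class I molecules, read 7.10, 7.73 and 5.61 in AI and 11.97, 11.88 and 11.96 in FB, 34.9-fold higher in FB (16.7 to 73.0; 22.9-fold without AI 3), and all 3 of its probe sets were lower in AI. The peptide loading genes TAP2 and TAPBP were at least 5.17-fold and at least 3.05-fold higher in FB, and IFITM1 at least 8.72-fold. AI 3 had the lowest B2M and TAP2 values.

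Proliferation genes were mostly higher in the conceptus. Of 36 genes of replication and mitosis on the array 26 were higher in AI, 6 lower, 1 not called and 3 below the filter, and among the 15 above log2 4 on all 6 arrays 12 were higher and 2 lower, with a median of 1.73. MAD2L1, of the spindle checkpoint, read 8.98, 9.34 and 8.89 in AI and 3.92, 3.72 and 4.26 in FB, at least 31.7-fold higher. CDK1, the mitotic kinase, was 12.4-fold higher (9.28 to 16.4), at 8.02, 8.62 and 7.96 against 4.55, 4.47 and 4.69. UBE2C, BIRC5 and CDC20, of mitotic exit and chromosome segregation, were 9.11-fold, 8.93-fold and 8.18-fold higher. Regulators of G1 went both ways. CCNE1 and CDK2, which act at entry into S phase, were higher in AI by at least 1.11 and at least 0.91 on the log2 scale. CCND2 and CCND1, cyclins that answer to growth factors, read 2.55 and 2.53 on average in AI and 8.98 and 7.22 in FB, at least 31.6-fold and at least 9.35-fold higher in FB. CDKN1A, a brake on the cycle, was 8.78-fold higher in FB (7.17 to 10.8).

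Among genes with signal in both groups, large rises in AI outside those above were those of PRXL2A (43.2-fold, 35.9 to 51.8), the lysosomal phospholipase gene PLA2G15 (41.4-fold), THEM4 (28.1-fold), the glutathione transferase gene MGST1 (27.3-fold), the pseudouridine phosphatase gene PUDP (23.7-fold) and the galactose enzyme gene GALM (19.1-fold). CASP6, of apoptosis, read 8.17, 8.55 and 8.49 in AI and 3.91, 4.21 and 4.34 in FB, at least 18.7-fold higher in AI. Large falls included that of BSCL2, whose protein seipin shapes lipid droplets (51.5-fold higher in FB, 42.7 to 62.2), the tetraspanin gene CD81 (32.5-fold), the chloride channel-type gene CLIC4 (29.6-fold, on 4 of 4 probe sets) and the immediate early gene FOS (26.7-fold, 19.1 to 37.3). Each of these separated the 3 AI from the 3 FB arrays, which was a condition for choosing it and held for 80.5% of all tested genes.

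The conceptuses differed among themselves at a small set of genes. Of 4022 genes with an AI mean of at least 4, 12 had a SD above 1 log2 unit, and AI 3 was the lowest array for 10 of them and the highest for 2. Over all 4022, AI 3 was the lowest in 1012, AI 2 in 1989 and AI 1 in 1021. In FB 0 of 4118 genes with a FB mean of at least 4 varied that much. This set was picked after its values were seen. TIMP1, named above, spanned 3.21 log2 units. NT5E, an ecto-nucleotidase of mesenchymal cells, read 6.78, 7.51 and 4.76, LOC282255, which the gene table also lists as IFITM3, 7.22, 6.02 and 4.50, and the cytotoxic granule gene GZMB 6.60, 6.51 and 4.32. B2M, ACTA2 and BNIP3 belonged to it as well. PHGDH, of serine synthesis, and RARRES1 were the ones highest on AI 3, at 5.84, 5.86 and 7.74 and at 4.55, 4.09 and 6.13. Without AI 3 the comparison with FB still gave 5916 called probe sets.

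The division between conceptus and fibroblast was largely shared by the study's other conceptuses, whose arrays are set here beside the AI values with no test. Of 540 genes above log2 4 on all 3 AI arrays and on no FB array, 426 (78.9%) were also above 4 on all 3 IVP (in vitro produced) and all 3 SCNT (cloned) arrays, and 33 were at or below 4 on all 6. Of 603 genes above 4 on all 3 FB arrays and on no AI array, 513 (85.1%) were at or below 4 on all 6 and 10 above 4 on all 6. CCND2, at the floor in AI, averaged 5.62 in IVP and 6.30 in SCNT conceptuses. The division of ATP1B1 and ATP1B3 was not shared by all conceptuses. ATP1B3 averaged 8.52 in AI and 8.98 in FB, but 10.34 in IVP and 10.76 in SCNT. ATP1B1 averaged 7.63 in AI and 8.14 in IVP, but 5.80 in SCNT, near its FB mean of 5.69. TSPAN1 averaged 11.03 in AI, 6.28 in IVP and 5.80 in SCNT, and SPINK4, a secreted protease inhibitor, averaged 6.50 in AI, 2.63 in IVP and 2.73 in SCNT. ALAS2 averaged 6.80 in AI, 2.63 in IVP and 2.58 in SCNT. Of the leukocyte genes, CD48 averaged 5.92 in AI, 2.45 in IVP and 2.46 in SCNT, and AIF1 7.81, 5.68 and 5.16. KRT19, EPCAM and VIM differed by less than 0.4 log2 units between the means of the 3 conceptus groups.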

How the data were processed

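The deposited table holds the authors' log2 signals of a bovine Affymetrix array for all 12 arrays. The submitters' processing notes name GCRMA and limma without versions, and the values have a floor of 2.42. No other processing step is given in the sources used here. Control probe sets (112) were removed, and limma 3.58.1 (R 4.3.3) was run on the 6 arrays with 4 residual degrees of freedom, with Benjamini-Hochberg adjustment over the tested probe sets. Intervals are 95%. The number of arrays limits the precision, and an exact permutation test of 3 against 3 cannot go below 0.1. The script was tested on simulated data. Gene names come from the platform annotation. A gene stands by its tested probe set with the highest mean over the 6 arrays. Most named genes were chosen among those called without overlap. They were the 10 largest measured differences and 10 largest bounds in each direction, and up to 6 members per list and direction. The cell type markers were named whether called or not. Some further list members, and genes that varied among the AI arrays, were named outside this rule. The members and lists were chosen with earlier results of these data known. Alternatives covered the filter, normalization, floor, arrays, variance model, threshold and replicates. The replicate numbers were not treated as pairs in the main fit. The text describes a selection of these genes, and an item withheld for evaluation is not reported here.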

Additional observations from a re-analysis of the deposited data

How the results depend on the processing

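Requiring log2 above 4 on all 6 arrays left fewer probe sets to test, with 3264 called (1840 higher and 1424 lower in AI), and 180 called list members and 101 named genes instead of 401 and 252. Requiring at least a 2-fold difference left 2895 probe sets, 1441 higher and 1454 lower. The other alternatives gave 4318 to 7923 called probe sets, and leaving out 1 array 5614 to 6240. Of 4113 values of named genes under alternatives, 4059 kept direction and call, 54 (12 genes) lost the call and 0 reversed. With the replicate number as a block 5900 probe sets were called. Deviations of same-numbered arrays from their group means correlated at 0.060, -0.12 and -0.082, and those of other array pairs at -0.098 to 0.15. With 3 arrays per group these values cannot tell if the numbers pair the samples. Signals near the floor limit folds to bounds.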

Other observations

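Imprinted genes and glycolysis were not described above. Of 22 imprinted genes on the array 4 were higher in AI, 8 lower and 10 below the filter. Of 22 glycolysis genes 8 were higher in AI, 7 lower, 4 not called and 3 below the filter, and the 15 above log2 4 on all 6 arrays had a median difference of 0.33. All 13 housekeeping genes on the array were tested, and 4 were higher in AI, 6 lower and 3 not called, with a median difference of -0.051. Of 652 genes with more than 1 tested probe set, 398 (61.0%) had all probe sets called in 1 direction and 45 had probe sets called in both. Among the latter were the list members MGP, FGF1, CST3, S100A10 and GNAS, each counted by its brightest probe set. None of 10 HOX genes on the array passed the filter.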
